A study of Mus musculus with 4 samples.

Results

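Clustered protocadherins are cell-surface adhesion proteins of the cadherin family that are encoded by 3 neighbouring gene arrays, alpha, beta and gamma, on mouse chromosome 18. Among the 18377 genes counted in the cortex of APPswe/PS1ΔE9 and WT mice, 38 were clustered protocadherins, chosen because their GENCODE M21 symbol begins with Pcdha, Pcdhb or Pcdhg. They comprised 7 alpha, 22 beta and 9 gamma genes. RNA of all 38 was counted in all 4 libraries, and 0 of them passed the cut-offs between the genotypes, with 27 of 38 fitted higher and 11 lower in APPswe/PS1ΔE9 mice.

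Cortex was taken from 2 male transgenic mice of the APPswe/PS1ΔE9 model of Alzheimer's disease (APP), which carry the human transgenes of that name, and from 2 male WT mice without the transgenes. All 4 mice were 12 months old and of C57BL/6 background, and each mouse gave 1 library of RNA depleted of ribosomal RNA, named APP.3, APP.4, WT.1 and WT.2. Both transgenes of this line are driven by the mouse prion protein promoter, and the mice are of 1 transgenic line, so that effects of the transgenes and of their insertion site cannot be told apart. Counts were expressed as CPM (counts scaled to library size) after TMM normalisation, a scaling that takes most genes as equal between libraries. The fit was edgeR's quasi-likelihood model, with Benjamini-Hochberg adjustment over all 18377 genes. A gene was called when its FDR was under 0.05 and its fold change at least 1.5. The smallest two-sided p that exact permutation allows for 2 against 2 mice is 0.333, so every smaller p-value below draws on a spread estimated across genes.

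In each array, variable exons with promoters of their own lie in tandem, and a neuron uses a small, largely random choice of them. In the alpha and gamma arrays the chosen variable exon is spliced to constant exons that all transcripts of the array share, whereas beta transcripts have no such shared end. The proteins form multimers on the cell surface that bind the same combination on another membrane, by which neurites of a neuron recognise and avoid each other. The 5 C-type isoforms, Pcdhac1, Pcdhac2, Pcdhgc3, Pcdhgc4 and Pcdhgc5, lie at the downstream ends of the alpha and gamma arrays and are used more uniformly than the others. Cortical tissue averages over cells, so the choice made by a neuron was not measured here, and fewer cells of a type cannot be told apart from less RNA per cell.

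By their transcripts, the alpha genes lie at chr18:36930285-37187657, the beta genes at chr18:37264938-37521145 and the gamma genes at chr18:37674307-37841873 (GRCm38), all on the plus strand. The annotation holds 57 clustered protocadherin genes, and the other 19, of which 6 are alpha and 13 gamma genes, were not analysed here. The gamma B subgroup is thus given by Pcdhgb6 alone, and gamma A by Pcdhga3, Pcdhga8, Pcdhga9, Pcdhga11 and Pcdhga12. The transcripts differ in how far they can be told apart. A 100-base window was taken as shared when another counted clustered protocadherin transcript, or Gm42416, annotated across the arrays, also held it. Of the windows of a transcript, between 47.7% and 58.3% in alpha and between 40.6% and 44.5% in gamma were shared. In beta the share was at most 2.31%. How reads that match several transcripts were counted is not stated in the sources used here. Values of individual alpha and gamma genes are therefore uncertain. Windows were compared for exact identity, whereas the study's alignment allowed mismatches, so sharing of reads between similar beta genes was not measured.

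The libraries held between 28525117 and 43881196 counts, and the clustered protocadherins took between 20068 and 30323 of these, or 0.0669% to 0.0704% of a library. Over all genes, 162 were called, 155 of them higher in APP. The genotype labels were checked on App, counted at 2679 and 2389 CPM in the APP mice and at 857 and 905 CPM in the WT mice, a log2 fold change of 1.52 (SE 0.070, FDR = 2.05e-05). The 10 markers of cortical neurons were counted in every library, with a summed level between 3856 and 4752 CPM. Markers of other cells differed between the genotypes: 10 of 10 microglial markers (summed 273 and 337 CPM in APP, 167 and 169 CPM in WT), 9 of 9 oligodendrocyte markers (1893 and 1649 CPM against 1218 and 1357 CPM) and 9 of 10 astrocyte markers (4778 and 5131 CPM against 4299 and 3914 CPM) were fitted higher in APP, with 6, 1 and 2 of them called, while 8 of 10 cortical neuron and 7 of 8 interneuron markers were fitted lower. All 7 measured hypothalamic markers were also fitted higher, at summed levels of 8.31 and 11.9 CPM in APP and 3.23 and 3.92 CPM in WT. Of these, 2 were called: Avp (18 and 102 counts in APP, 2 and 0 in WT) and Sim1 (29 and 34 counts in APP, 2 and 0 in WT). The part of these differences in the values of the clustered protocadherins was not tested.

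Levels of different genes were compared per kilobase (kb) of transcript. On this scale the clustered protocadherins spanned from 0.226 CPM per kb for Pcdhb1 to 27.3 CPM per kb for Pcdhgb6, as means over the 4 libraries. The 4 highest were Pcdhgb6, Pcdhac1, Pcdhgc5 and Pcdhac2, and 3 of them are C-type isoforms. The median over members was 2.87 and 2.85 CPM per kb in the APP libraries and 2.47 and 2.65 CPM per kb in the WT libraries. Apart from Pcdhb1, the means of beta genes ran from 1.06 CPM per kb for Pcdhb6 to 5.38 CPM per kb for Pcdhb16. Those of gamma A genes ran from 2.44 CPM per kb for Pcdhga12 to 3.72 CPM per kb for Pcdhga8, as the plot of levels by gene shows.

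**Figure D1:**
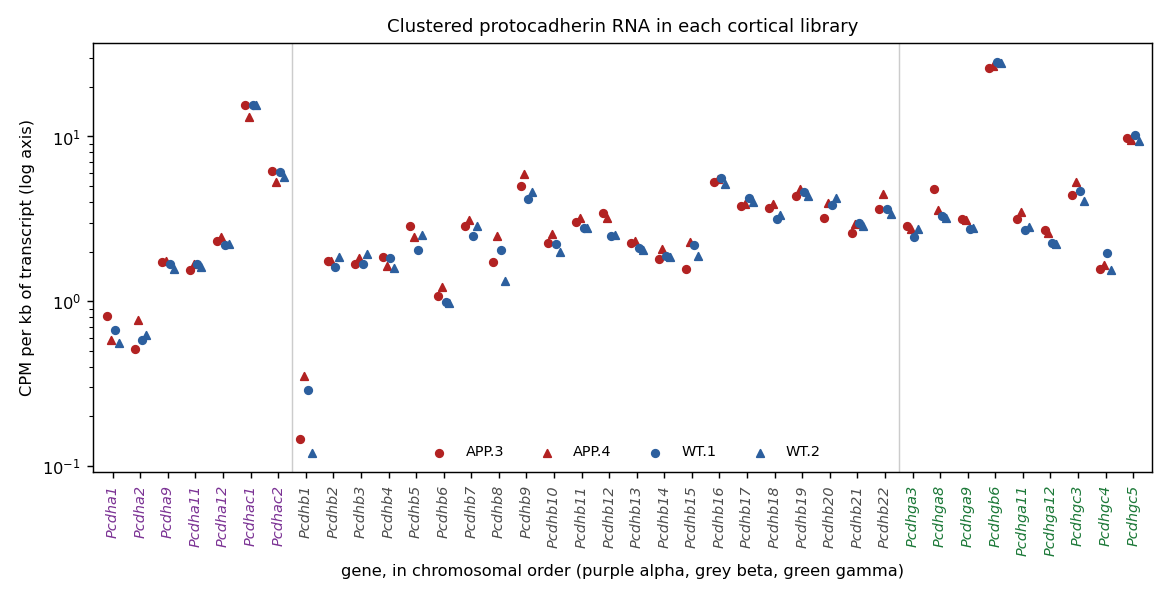
Level of each of the 38 clustered protocadherins in CPM per kb of transcript (vertical log axis), with genes in chromosomal order on the horizontal axis. Circles and triangles are the 2 libraries of each genotype (red APP, blue WT), grey lines separate the arrays, and Pcdhgb6 and Pcdhac1 stand above the rest in all 4 libraries while Pcdhb1 lies below.

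In the alpha array, Pcdhac1 was counted at 15.5 and 13.2 CPM per kb in APP.3 and APP.4, and at 15.5 and 15.4 CPM per kb in WT.1 and WT.2. Pcdhac2, an isoform known for its role in the spacing of serotonergic axons, was at 6.18 and 5.28 CPM per kb in APP and 6.08 and 5.71 CPM per kb in WT. APP.4 gave the lowest value of both genes, and the groups overlapped for both. Their log2 fold changes of -0.11 (SE 0.084) and -0.043 (SE 0.092) did not pass the test, with an FDR of 0.671 and 0.913. Levels per kb were lower at the upstream end of the array. Pcdha1, whose variable exon lies farthest upstream, was at 0.808 and 0.584 CPM per kb in APP and 0.672 and 0.559 CPM per kb in WT. Pcdha12, the last of the alpha isoforms before the C-types, was at 2.32 and 2.45 CPM per kb in APP and 2.21 and 2.22 CPM per kb in WT, 3.50-fold above Pcdha1 by the means. In both genotypes the order Pcdha1, Pcdha12, Pcdhac2, Pcdhac1 held without overlap between libraries.

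Pcdha9 was at 1.73 and 1.76 CPM per kb in APP and 1.68 and 1.56 CPM per kb in WT. Pcdha11 was at 1.55 and 1.67 CPM per kb in APP and 1.69 and 1.61 CPM per kb in WT. Pcdha9 and Pcdha12 had both APP libraries above both WT libraries, by small margins, while Pcdha1, Pcdha2 and Pcdha11 overlapped between the groups. Log2 fold changes of these 5 alpha genes lay between -0.034 and 0.17, and the smallest FDR among them was 0.761. Pcdha11 sums 2 transcripts, whose own log2 fold changes of -0.10 (SE 0.13) and 0.059 (SE 0.14) had different signs and did not pass the test. Values of Pcdha11 also depend on the annotation, since another annotation, RefSeq, places Pcdha10 where the more upstream of these transcripts starts.

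In the gamma array, Pcdhgb6 was counted at 26.2 and 26.9 CPM per kb in APP and at 28.2 and 27.8 CPM per kb in WT. Both APP libraries were below both WT libraries, and the log2 fold change of -0.08 (SE 0.062) did not pass the test (FDR = 0.699). Pcdhgb6 alone held between 44.2% and 48.7% of the gamma counts of a library, and Pcdhac1 between 47.6% and 51.9% of the alpha counts. In both arrays the gene with the most counts was also the one whose transcript has the lowest Ensembl number. In beta, where few windows are shared, the transcript of lowest number belongs to Pcdhb15, which had rank 19 of 22 by counts. Whether the counting of shared reads set the levels of Pcdhgb6 and Pcdhac1 was not tested, and counts, medians and totals of the arrays are therefore given with and without both genes.

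The gamma C-type isoforms were ordered alike in every library. Pcdhgc5 was at 9.73 and 9.50 CPM per kb in APP and 10.3 and 9.32 CPM per kb in WT. Pcdhgc3 was at 4.43 and 5.26 CPM per kb in APP and 4.68 and 4.07 CPM per kb in WT. Pcdhgc4, known as the isoform on which the survival of interneurons depends, was at 1.56 and 1.66 CPM per kb in APP and 1.96 and 1.54 CPM per kb in WT. Pcdhgc5 thus exceeded Pcdhgc4 by 5.77-fold and Pcdhgc3 by 2.10-fold in the means, and the APP and WT libraries overlapped for all 3 genes. Their log2 fold changes were -0.028 (SE 0.075) for Pcdhgc5, 0.15 (SE 0.11) for Pcdhgc3 and -0.12 (SE 0.15) for Pcdhgc4, and the smallest FDR among the C-type isoforms of both arrays was 0.662.

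Dividing by the unshared windows in place of the whole transcript raised the levels of alpha and gamma genes against those of beta genes. On that scale the means were 49.9 CPM per kb for Pcdhgb6, 31.5 for Pcdhac1, 17.6 for Pcdhgc5 and 11.3 for Pcdhac2. The 4 highest kept their order, but the counts were the same and their unshared lengths similar. That order therefore says nothing about how shared reads were assigned. Pcdhb16, the highest of the beta genes per kb of whole transcript, moved from rank 5 to rank 8 of 38. The order of levels between arrays therefore depends on the denominator, as the plot of both denominators shows, and the assignment of shared reads was not varied.

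**Figure D2:**
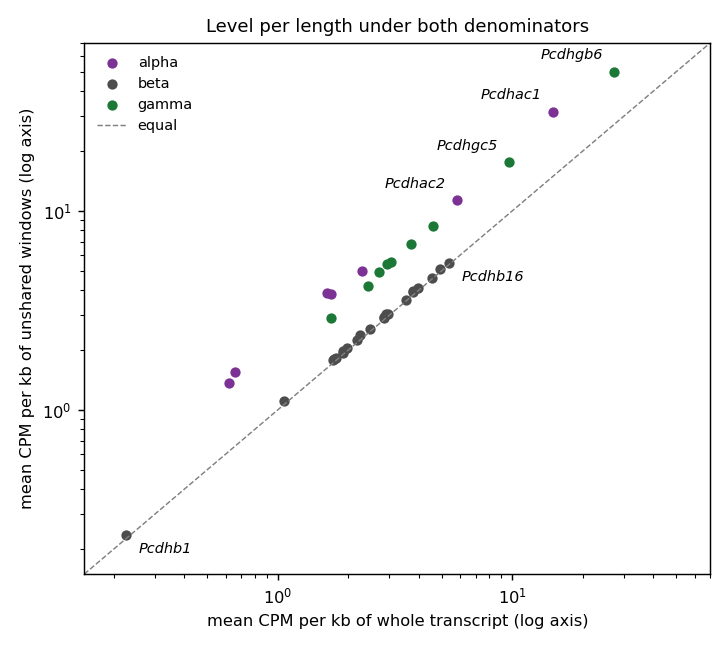
Mean level of each gene over the 4 libraries, per kb of whole transcript (horizontal log axis) and of unshared windows (vertical log axis). Both use the same counts, and unshared windows are those that neither another counted clustered protocadherin transcript nor Gm42416 holds. Points are genes, coloured by array, and the dashed line marks equal values, on which the beta genes lie while all alpha and gamma genes lie above it.

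Beta genes have no constant end in common, and by exact 100-base windows their transcripts were the most separable. Pcdhb16 was counted at 5.26 and 5.51 CPM per kb in APP and 5.58 and 5.17 CPM per kb in WT. Pcdhb19, which had the most counts of the beta genes and a long transcript, was at 4.36 and 4.83 CPM per kb in APP and 4.62 and 4.36 CPM per kb in WT. Pcdhb17 was at 3.80 and 3.91 CPM per kb in APP and 4.24 and 3.995 CPM per kb in WT. Of these 3 abundant genes, Pcdhb17 had both APP libraries below both WT libraries, and the others overlapped. Their log2 fold changes of 0.0017 (SE 0.080), 0.033 (SE 0.083) and -0.10 (SE 0.086) did not pass the test, and each 95% interval lay within a 1.5-fold change in either direction. At the other end, Pcdhb1 had between 11 and 33 counts in a library, and its interval, from -1.05 to 1.56 on the log2 scale, leaves its change undetermined at this depth.

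The largest fitted difference between the genotypes was that of Pcdhb12. It was counted at 3.42 and 3.21 CPM per kb in APP and 2.48 and 2.54 CPM per kb in WT, or at 3.32 ± 0.145 against 2.51 ± 0.0448 CPM per kb (mean ± SD, n = 2). Both APP libraries were above both WT libraries. Its log2 fold change of 0.40 (SE 0.12, 95% interval 0.12 to 0.69) had an unadjusted p of 0.0103 in edgeR's quasi-likelihood test and an FDR of 0.215, and was not called. Its interval reached past the 1.5-fold cut-off, which is 0.585 on the log2 scale.

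Another 5 genes had an unadjusted p under 0.05, all of them higher in APP and not called. Pcdhb9 was at 4.98 and 5.91 CPM per kb in APP and 4.19 and 4.57 CPM per kb in WT, a log2 fold change of 0.32 (SE 0.12, FDR = 0.304). Pcdhb18 was at 3.69 and 3.91 CPM per kb in APP and 3.14 and 3.34 CPM per kb in WT, a log2 fold change of 0.23 (SE 0.091, FDR = 0.345). For both of these beta genes the APP libraries stood above the WT libraries. Pcdhga8 was at 4.79 and 3.58 CPM per kb in APP and 3.30 and 3.20 CPM per kb in WT, a log2 fold change of 0.36 (SE 0.13, FDR = 0.305). Its groups did not overlap either, but APP.3 stood apart from the other 3 libraries, and without APP.3 its log2 fold change was 0.14.

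Pcdhga11 was at 3.17 and 3.50 CPM per kb in APP and 2.70 and 2.84 CPM per kb in WT, a log2 fold change of 0.27 (SE 0.10, FDR = 0.322). Pcdhga12 was at 2.69 and 2.59 CPM per kb in APP and 2.24 and 2.23 CPM per kb in WT, a log2 fold change of 0.24 (SE 0.10, FDR = 0.394). In both of these gamma A genes the APP libraries exceeded the WT libraries by more than the libraries of a group differed. The remaining gamma A genes followed the same order of groups. Pcdhga9 was at 3.14 and 3.10 CPM per kb in APP and 2.73 and 2.77 CPM per kb in WT, with an unadjusted p of 0.0944 in edgeR's quasi-likelihood test. Pcdhga3 was at 2.88 and 2.76 CPM per kb in APP and 2.46 and 2.76 CPM per kb in WT, and its APP.4 and WT.2 libraries were nearly equal. Pcdhb8 had a log2 fold change of 0.32 with a wide SE of 0.24, from 1.74 and 2.50 CPM per kb in APP and 2.05 and 1.33 CPM per kb in WT, and its groups overlapped. Its log2 fold change ran from 0.028 without APP.4 to 0.67 without WT.1.

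**Figure D3:**
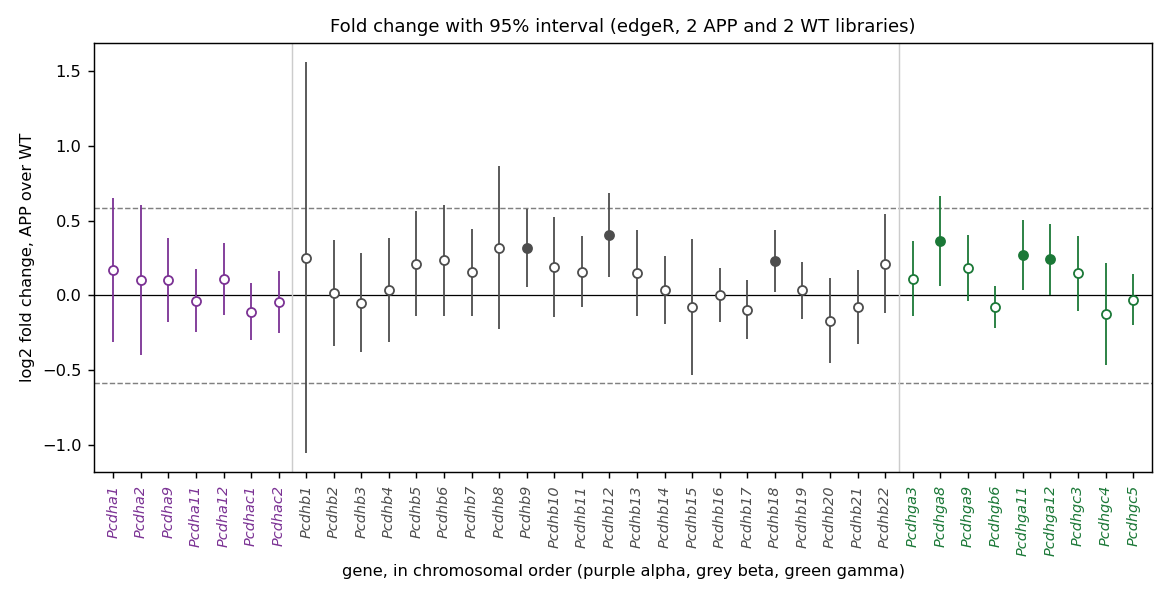
Log2 fold change of APP over WT for each clustered protocadherin (vertical axis), with its 95% interval from edgeR's quasi-likelihood fit, in chromosomal order on the horizontal axis. Filled points have an unadjusted p under 0.05, dashed lines mark a 1.5-fold change, and the 6 filled points, 3 beta and 3 gamma genes, all lie above 0.

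Counted over the family, 0 of 38 genes were called, against 0.882% of all genes tested. An unadjusted p under 0.05 was reached by 6 of 38 in the direction of APP, against 7.38% of all genes tested, and by 0 of 38 in the direction of WT, against 4.76%. DESeq2 gave 3 of 38 such genes in either direction, where 7.74% of all genes reached that p, edgeR's exact test 5 (11.2% of all genes) and its likelihood ratio test 5 (11.8%), and none of these tests called a clustered protocadherin. The count of 6 moved in both directions when 1 library was left out, as did the share of all genes at that p. Both were lower without WT.1 and without WT.2. Both APP libraries lay above both WT libraries in 14 of 38 genes, where 21.3% of all genes did so, and below them in 2 of 38, Pcdhb17 and Pcdhgb6, where 21.3% of all genes did so. The 95% interval lay within a 1.5-fold change in 31 of 38 genes, against 60.9% of all genes. The 7 others were Pcdha1, Pcdha2, Pcdhb1, Pcdhb6, Pcdhb8, Pcdhb12 and Pcdhga8, and of these the interval of Pcdhb12 and of Pcdhga8 lay above 0. Leaving out APP.3 gave 2 genes with an FDR under 0.05, Pcdhb9 (log2 fold change 0.43, FDR = 0.00951) and Pcdhac1 (-0.23, FDR = 0.0255), and leaving out APP.4 gave Pcdhga8 (0.56, FDR = 0.00034), in fits where a lone APP library is assumed to vary like the WT libraries. All 3 remained under the 1.5-fold cut-off. The same fits called 601 and 478 genes over the whole table, against 162. In the opposite fits, Pcdhb9 had a log2 fold change of 0.19 (FDR = 0.44) without APP.4, Pcdhac1 one of 0.0041 without APP.4 and Pcdhga8 one of 0.14 without APP.3.

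By array, 4 of 7 alpha, 17 of 22 beta and 6 of 9 gamma genes were fitted higher in APP, where 49.7% of all genes were. The median log2 fold change was 0.10 in alpha, 0.15 in beta and 0.15 in gamma, against -0.0011 over all genes tested. Without Pcdhac1 and Pcdhgb6, 4 of 6 alpha and 6 of 8 gamma genes were fitted higher, with medians of 0.10 and 0.17. Leaving out any of the 4 libraries lowered the alpha median, to between 0.021 without APP.3 and 0.068 without APP.4, and the beta median was 0.040 without APP.4 and 0.091 without WT.2. Within gamma, all 5 gamma A genes were fitted higher, with a median of 0.24. Both APP libraries exceeded both WT libraries in each of them, as they did in 21.3% of all genes tested. The 5 genes share sequence and come from the same libraries, so they are not separate observations. Of the 5 C-type isoforms, Pcdhgc3 was fitted higher and the other 4 lower, with a median of -0.043. A difference in response between arrays or subgroups was not tested.

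In beta the APP mice differed by nearly as much as the genotypes, and the WT mice by less. The median log2 ratio was 0.013 for APP.3 over WT.1, 0.11 for APP.3 over WT.2, 0.17 for APP.4 over WT.1 and 0.17 for APP.4 over WT.2. APP.3 was above APP.4 in 4 of 22 beta genes, with a median log2 ratio of -0.13. WT.1 was above WT.2 in 14 of 22 beta genes, with a median log2 ratio of 0.034. In gamma A, the same 4 ratios were 0.23, 0.18, 0.18 and 0.16. All 5 genes were higher in each of the 4 pairs of libraries, which restates that their groups did not overlap. In alpha they ran from -0.013 to 0.066. Of the C-type isoforms, all 5 were higher in WT.1 than in WT.2, with a median log2 ratio of 0.14.

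Summed over an array, the RNA amounts of the genotypes were close. The alpha genes gave 165 and 150 CPM in APP and 165 and 161 CPM in WT, which overlap. The beta genes gave 249 and 272 CPM in APP and 248 and 244 CPM in WT, or 261 ± 16.5 against 246 ± 2.72 CPM (mean ± SD, n = 2). The gamma genes gave 277 and 279 CPM in APP and 277 and 267 CPM in WT. In beta and gamma both APP libraries were above both WT libraries, but the margin over WT.1 was 1.14 CPM in beta and 0.229 CPM in gamma. The whole family came to 696 ± 6.66 CPM in APP and 681 ± 12.8 CPM in WT, a ratio of 1.02.

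Of the summed CPM of the 3 arrays, alpha made up 23.9% and 21.4% in the APP libraries and 23.9% and 23.9% in the WT libraries. Beta made up 36.0% and 38.9% in APP and 35.9% and 36.3% in WT, and gamma 40.1% and 39.7% in APP and 40.2% and 39.7% in WT. The shares of APP.3 lay near those of the WT libraries, and APP.4 held less alpha and more beta RNA than the others. The gamma A share was 11.5% and 10.6% in APP and 9.33% and 9.82% in WT, without overlap, and was not tested. Leaving out Pcdhac1 and Pcdhgb6, a choice made after their counts were seen, turned the alpha ratio of APP over WT from 0.968 to 1.01 and moved the gamma ratio from 1.02 to 1.09. The gamma total without Pcdhgb6 was 155 and 152 CPM in APP and 145 and 137 CPM in WT.

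**Figure D4:**
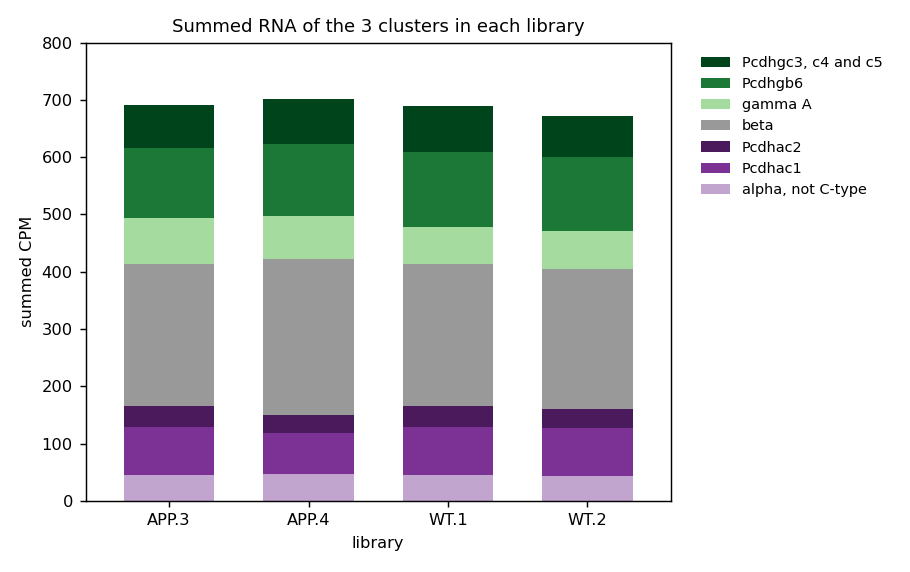
Summed CPM of the clustered protocadherins in each library (vertical axis, from 0), stacked by subgroup, with the most abundant gene of alpha (Pcdhac1) and of gamma (Pcdhgb6) and Pcdhac2 drawn on their own. The 4 bars end between 672 and 701 CPM, and the gamma A layer is 79.9 and 74.4 CPM thick in APP and 64.4 and 66.0 CPM in WT.

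Genes that act with the clustered protocadherins, and related adhesion genes, were taken from lists chosen with earlier results of these data known. The lists held 69 genes in all, and 0 of the 69 were called. At an unadjusted p under 0.05 in edgeR's quasi-likelihood test, 8 of 69 were higher and 5 of 69 lower in APP, against 7.38% and 4.76% of all genes tested. Promoter choice is served by CTCF, cohesin and DNA and histone methylation. The list of 17 genes for it also held Rest, a repressor of neuronal genes, which was the 1 of 17 higher at that p. Rest was at 9.96 and 11.1 CPM in APP and 8.21 and 8.04 CPM in WT (log2 fold change 0.37, FDR = 0.253). The most abundant genes of this list, Stag2 and Wapl, a subunit and the release factor of cohesin, had log2 fold changes of 0.012 (SE 0.061) and 0.053 (SE 0.072). The median of the list was 0.044.

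Clustered protocadherins are cut by ADAM10 and then by the gamma-secretase complex. Of the 8 cleavage genes listed, 7 were fitted higher in APP, with a median log2 fold change of 0.054, and 0 were called. Adam10, the most abundant of them, was at 105 and 102 CPM in APP and 98.7 and 102 CPM in WT, and its groups overlapped narrowly, at a log2 fold change of 0.042 (SE 0.063).

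Among 18 intracellular partners, Marcks, a membrane and actin-binding protein, was at 158 and 158 CPM in APP and 137 and 132 CPM in WT (log2 fold change 0.23, FDR = 0.166). Cyfip2, a subunit of the WAVE complex that the cytoplasmic domains bind, was at 488 and 517 CPM in APP and 594 and 576 CPM in WT (-0.22, FDR = 0.199), and its relative Cyfip1 was at 90.6 and 92.3 CPM in APP and 82.6 and 82.2 CPM in WT (0.15, FDR = 0.377). Nckap1, also of this complex, had a log2 fold change of -0.068 (SE 0.067). The groups did not overlap for any of these 4 genes, and their directions differed. Marcks, Cyfip1 and Cyfip2 were named for their p, which favours such separation, and Nckap1 was apart narrowly (636 CPM in APP.3, 639 CPM in WT.1). Over the list, both APP libraries were above both WT libraries in 4 of 18 genes and below them in 7 of 18, against 21.3% of all genes each way.

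Related adhesion genes outside the arrays were fitted in both directions, and 0 of them were called. Of 12 non-clustered protocadherins, Pcdh20 (log2 fold change 0.36, FDR = 0.154), Pcdh17 (0.25, FDR = 0.194) and Pcdh11x (0.20, FDR = 0.388) were higher and Pcdh1 (-0.16, FDR = 0.334) lower at an unadjusted p under 0.05, and the abundant Pcdh10 (-0.0045) and Pcdh9 (0.039) were close to 0. Their median was 0.039. Of 14 classical and type II cadherins, Cdh20 (0.36, FDR = 0.266) was higher and Cdh6 (-0.34, FDR = 0.314), Cdh12 (-0.24, FDR = 0.283) and Cdh22 (-0.24, FDR = 0.354) were lower at that p, and the abundant Cdh2 (0.091) and Cdh10 (-0.032) did not reach it. Their median was -0.081.

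**Figure D5:**
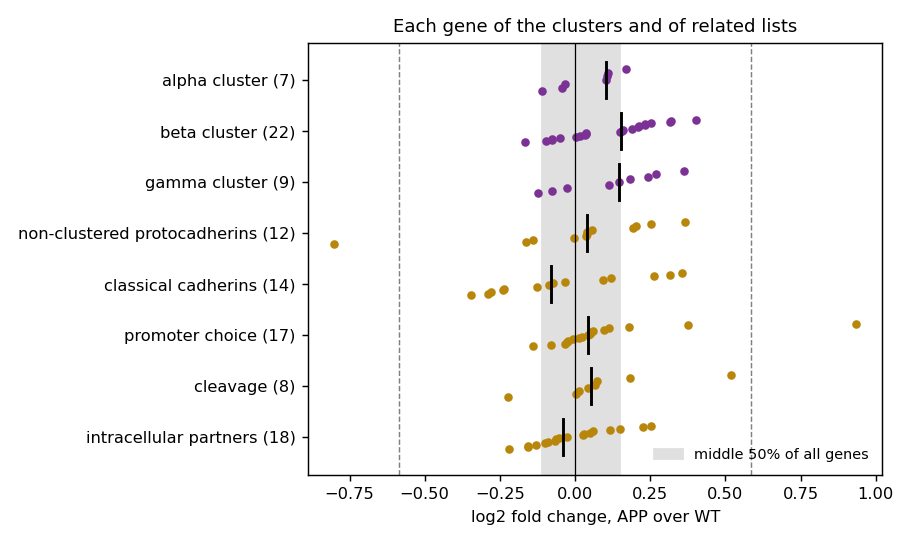
Log2 fold change of APP over WT (horizontal axis) for each gene of the 3 arrays (purple) and of 5 related lists (gold), with the number of genes in brackets, a black bar at each median, a grey band over the middle 50% of all genes tested and dashed lines at a 1.5-fold change. On all 4 libraries the medians of alpha, beta and gamma were 0.10, 0.15 and 0.15, and no clustered protocadherin lies outside the dashed lines.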

How the data were processed

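Cortical RNA of 2 APPswe/PS1ΔE9 and 2 WT male mice was sequenced as strand-specific paired reads after removal of ribosomal RNA. Per the study's methods, read pairs that mapped to ribosomal RNA were discarded, the others were aligned to Ensembl mouse transcripts with FANSe2, and transcripts with at least 10 reads were kept. The authors deposited raw counts of reads per transcript. Their processing notes also name CASAVA 1.8, edgeR and, for these mouse samples, the human build hg19. The Ensembl release and the treatment of reads that match several transcripts are not given in the sources used here. A further 4 columns of values per library and 4 columns of the authors' own comparison (fold change, mean level, p-value and FDR) were not used.

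The WT columns were matched to samples by number and the APP columns to their group. Deposited symbols file alpha and gamma genes under collective names, so 36858 of 37539 transcripts were named by identifier in GENCODE M21 (GRCm38) and summed per symbol, which gave 18377 genes. A minimum of 10 counts over the 4 libraries removed 0 genes. Counts were fitted with edgeR 4.0.16 (limma 3.58.1, R 4.3.3) by the quasi-likelihood method, with TMM, no covariate and a common dispersion of 0.00778, after tests on simulated data. CPM use TMM library sizes, and errors are SDs over 2 libraries. With no molecular identifiers, intervals cover the spread between libraries and not PCR duplicates. Tables were made in Python 3.11.15 (pandas 2.3.3, numpy 2.4.6, matplotlib 3.10.9).

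The family and the lists were chosen with earlier results of these data known. Values per library are given for C-type genes, the 4 of highest mean CPM in each subgroup, the 3 of largest fold change in each array with at least 10 counts in every library, and genes with an unadjusted p under 0.05. Of the lists, genes past that p and the 2 of highest mean CPM were named. A further gene of this rule is not reported here. Pcdha2, Pcdhb1, Pcdhb6 and Pcdhb15 were named after their values were seen. Alternatives were DESeq2 1.42.0, the likelihood ratio and exact tests of edgeR, unadjusted library totals, at least 10 counts in every library, no filter, transcripts, no fold cut-off and leaving out each library. Sums per gene identifier, and leaving out Pcdhac1 and Pcdhgb6, were added after seeing the data. Markers of 11 cell types or regions were counted, and those not named in the text are summarised after it.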

Additional observations from a re-analysis of the deposited data

How the results depend on the processing

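No clustered protocadherin was called under any of the 8 other planned fits on all 4 libraries, nor without any library. The number of genes called over the whole table, 162, became 354 with edgeR's exact test, 392 with its likelihood ratio test and 303 with transcripts, and between 135 and 601 when a library was left out. Of the 69 genes of the related lists, 1 was called with transcripts and 1 with no fold cut-off. Leaving out each library in turn gave median log2 fold changes from 0.021 to 0.068 in alpha, from 0.040 to 0.17 in beta and from 0.14 to 0.20 in gamma. The log2 ratio of cluster totals then ran from -0.12 to 0.021 in alpha, so that its sign changed without APP.4, from 0.018 to 0.15 in beta and from 0.0045 to 0.058 in gamma, and was 0.12 in gamma without Pcdhac1 and Pcdhgb6. Of 22 clustered protocadherins given per library, 8 changed sign under some alternative, and 0 of those 8 were called in any of them. No paired analysis was possible because the APP columns carry other numbers than the labels. A fit with 1 library in a group takes its spread from the other group. The cause of these changes was not tested.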

Other observations

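Transcripts that overlap or border the arrays but carry other GENCODE M21 symbols were also counted. Gm42416 is annotated from the alpha array into the gamma array on the same strand, and was deposited under the symbol of the alpha genes. It had 184 and 178 counts in APP and 309 and 254 counts in WT. Its log2 fold change was -0.23 (SE 0.14, FDR = 0.565 in edgeR's quasi-likelihood test). On the opposite strand, Gm10545 within alpha and Gm26672 within gamma had between 11 and 83 counts in a library and log2 fold changes of 0.11 (SE 0.29) and 0.35 (SE 0.49). Taf7, a subunit of the general transcription factor TFIID that lies between beta and gamma, had a log2 fold change of 0.13 (SE 0.099), and Diaph1, downstream of gamma, one of -0.16 (SE 0.11). Neither these nor Slc25a2 and 3222401L13Rik, which lie beside Taf7, were called.

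Of the marker lists that the text above leaves out, 2 of 7 endothelial, 3 of 7 striatal, 5 of 7 thalamic and 1 of 5 choroid plexus markers were fitted higher in APP, and the 1 serotonergic marker measured was fitted lower. At an unadjusted p under 0.05 in edgeR's quasi-likelihood test, 5 thalamic markers were higher, of which 1 was called. Of the endothelial, striatal and choroid plexus markers, 0 reached that p. The APP libraries differed in striatal RNA, however. The striatal markers summed to 267 CPM in APP.3 and 542 CPM in APP.4, and to 356 CPM in WT.1 and 412 CPM in WT.2. The part of this difference in the values of the clustered protocadherins was not tested.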
